A study of Caenorhabditis elegans with 2 samples.

Results

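The pharynx fate regulators described here are 10 genes of Caenorhabditis elegans, out of 19985 protein-coding genes in the annotation: pha-4, ceh-22, tbx-2, peb-1, ceh-34, eya-1, ceh-2, ceh-19, ceh-28 and hlh-6. They were listed by name, for their known roles, with earlier results of these data known, and no measured value entered the rule. For each gene, every peak summit from 5 kb upstream of the 5′ end to the gene end, called its window, was read in the deposited peak lists. The 10 windows sum to 98.1 kb, with a median of 8967 bp, against 7026 bp for the windows of all protein-coding genes.

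The peaks come from chromatin immunoprecipitation and sequencing of PHA-2, the homeodomain factor of the HEX family that shapes the pharyngeal isthmus. There was 1 group of 2 biological replicates and no second condition. It consisted of whole late embryos of strain OP687, with genotype unc-119(tm4063) III; wgIs687, of mixed sex, taken 3 h after synchronisation by bleaching for eggs. The transgene makes PHA-2 fused at its C terminus to GFP-FLAG, and the fusion was precipitated with an antibody against GFP. The promoter that drives it is not given in the sources used here. All tissues of the embryo were in the sample, so a peak cannot be assigned to pharyngeal cells. With 1 group, every value below is a description, and no test was made.

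The pharynx is the muscular feeding organ of the worm, built from muscle, nerve, gland and epithelial cells. The FoxA factor PHA-4 is the organ selector: it acts in essentially all pharyngeal cells. Factors for single tissues act with it or after it, such as the NK-2 factor CEH-22 and the T-box factor TBX-2 in muscle, the SIX-type homeodomain factor CEH-34 with its cofactor EYA-1 in neurons, and the basic helix-loop-helix factor HLH-6 in glands.

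All 10 genes had a summit in the list called on the pooled replicates, but 3 had one in the stricter optimal list kept by the authors' irreproducible discovery rate (IDR) procedure, which asks that replicates agree: pha-4 with 2 summits, peb-1 with 1 and eya-1 with 1. The muscle genes ceh-22 and tbx-2 came next in signal, the value that the authors' peak caller gives each peak, whose unit is not stated. The other 5 genes, ceh-34, ceh-2, ceh-19, ceh-28 and hlh-6, had 1 to 4 pooled summits each, none of them in the optimal list. The genes known from neurons did not stand together, since eya-1, the cofactor of CEH-34, had 17 pooled summits and an optimal one. The optimal list holds 878 peaks, which are the 878 of highest signal in the pooled list of 30000. Its signal ran from 120.2 to 3008 with a median of 159. The highest signal of a regulator summit outside it was 110.1, at pha-4. The deposited −log10 q-value was 2.07 at the optimal summits of pha-4 and peb-1 and 1.79 at that of eya-1. At the strongest pooled summit of the other genes it was 1.21 (ceh-22), 1.03 (tbx-2), 0.502 (hlh-6), 0.454 (ceh-34), 0.157 (ceh-2), 0.0996 (ceh-19) and 0.031 (ceh-28). The pooled list is labelled as peaks and background put into the IDR procedure. A pooled summit outside the optimal list is therefore not shown to be a bound site.

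The share of 30% with an optimal summit (3 of 10, 95% Clopper-Pearson interval 6.67 to 65.2%) stood against 7.0% of all protein-coding genes (1399 of 19985). This interval covers counting error only. The genes were chosen by name with earlier results of these data known, so the interval is no test against a background share. The 3 genes are also the 3 with windows of at least 12 kb, and among protein-coding genes with windows that long the share was 13.7% (259 of 1897), a limit chosen after the values were seen. Both background shares lie inside the interval. With a reach of 1000 or 2000 bp upstream in place of 5 kb the same 3 genes had an optimal summit. The share over protein-coding genes was then 3.93% and 4.8%. Those shares cover genes of all lengths. No share over long genes was computed at these reaches, so they do not show an excess beyond gene length. For pooled summits, 10 of 10 regulators stood against 73.8% of protein-coding genes.

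**Figure D1:**
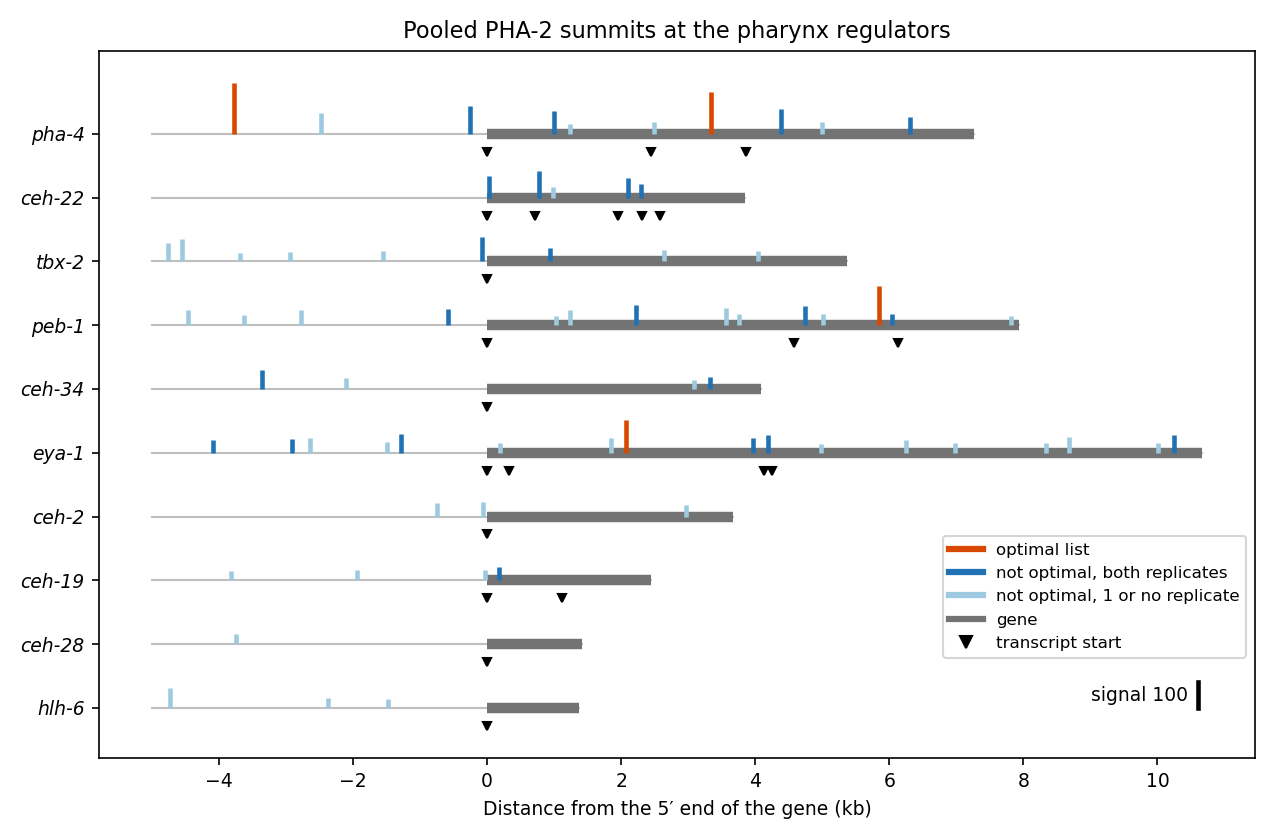
Pooled summits in the 10 windows, 1 row per gene, by distance from the gene's 5′ end in kb. The height of a bar is its signal, orange bars are optimal, dark blue bars were found in both replicates and light blue bars in 1 or neither, thick grey lines are the genes and triangles their transcript starts. The 4 orange bars stand at pha-4, peb-1 and eya-1, and 3 of them lie inside the gene.

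The windows of the regulators held 70 pooled summits, 62 of replicate 1 and 51 of replicate 2. Per 100 kb this came to 71.4 pooled summits, against 28.7 over all protein-coding windows and 29.9 over the genome. Per gene, the median was 0.551 pooled summits per kb for the regulators and 0.228 for protein-coding genes, and 9 of 10 regulators lay above that second median. Optimal summits came to 4.08 per 100 kb of regulator window, against 0.992 in protein-coding windows, but the first value rests on 4 summits.

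The gene pha-4 (WBGene00004013, chromosome V, 20753052 to 20760317, plus strand) had the strongest regulator summit in every list. Its first optimal summit lay 3782 bp upstream, between genes, in a 456 bp peak at 20749042 to 20749497. The signal there was 199.9 among pooled peaks (rank 274 of 30000), 95.3 in replicate 1 (rank 373 of 23371) and 111 in replicate 2 (rank 208 of 24336). Both replicates placed it near the top of their lists, with summits 49 and 40 bp from the pooled one. The closest annotated start was that of the non-coding RNA gene F38A6.6 (WBGene00197481), 3392 bp away, and the closest protein-coding start was that of pha-4.

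The second optimal summit of pha-4 lay in an intron, 3340 bp downstream of the 5′ end, in the peak at 20756164 to 20756619. Its signal was 163 among pooled peaks (rank 411), 76.3 in replicate 1 (rank 620) and 87.3 in replicate 2 (rank 350), with both replicate summits within 6 bp. The start of a shorter pha-4 transcript lies 518 bp away. The non-coding RNA gene F38A6.9 (WBGene00202178) starts 345 bp away. More than 1 optimal summit was found in the windows of 0.746% of protein-coding genes (149 of 19985).

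The gene peb-1 (WBGene00003968, chromosome X, 2211051 to 2218988, plus strand) encodes a DNA-binding protein with a FLYWCH-type zinc finger that is expressed in the pharynx. Its optimal summit was in an intron, 5841 bp from the 5′ end, in the peak at 2216664 to 2217119. The signal was 153 among pooled peaks (rank 484), 78.8 in replicate 1 (rank 578) and 71.9 in replicate 2 (rank 587). This summit falls inside the non-coding RNA gene T14F9.14 (WBGene00198292), 9 bp from its start, and 282 bp from the start of a shorter peb-1 transcript. The closest protein-coding gene start was not peb-1 but hex-1, 4258 bp away.

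The sequences at these 3 summits, with 75 bases on each side of the summit, are printed because they are the 3 summits of highest pooled signal in the regulator windows. They are read from the WBcel235 genome (RefSeq), the assembly also called ce11, on the strand of the gene, 5′ to 3′. Capitals mark matches to the searched motifs, here GAGAGA on either strand, and runs of 10 or more C alone or G alone. Stretches that mix C and G are not marked.
pha-4 upstream, chrV:20749195-20749345, plus strand: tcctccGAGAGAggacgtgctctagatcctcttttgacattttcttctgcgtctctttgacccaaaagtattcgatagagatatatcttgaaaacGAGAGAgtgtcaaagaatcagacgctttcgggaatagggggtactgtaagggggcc
pha-4 intron, chrV:20756317-20756467, plus strand: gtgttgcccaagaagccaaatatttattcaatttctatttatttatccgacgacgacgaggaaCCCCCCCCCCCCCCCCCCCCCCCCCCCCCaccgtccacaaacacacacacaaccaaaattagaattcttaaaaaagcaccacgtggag
peb-1 intron, chrX:2216817-2216967, plus strand: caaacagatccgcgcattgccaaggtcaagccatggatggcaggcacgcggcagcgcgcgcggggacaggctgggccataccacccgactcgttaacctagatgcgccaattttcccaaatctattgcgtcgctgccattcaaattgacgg

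The upstream pha-4 sequence holds 2 GAGAGA matches, and the intron one holds a run of 29 C. A run of 10 or more C alone or G alone occurred in 1 of the 11 windows examined at regulator summits. The share was 2.05% of optimal (18 of 878) and 1.08% of pooled windows. The part of such a run in the signal was not tested.

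The remaining 8 pha-4 summits were outside the optimal list. One lay 253 bp upstream, with a pooled signal of 110.1 (rank 1116), 54.8 in replicate 1 (rank 1563) and 65.5 in replicate 2 (rank 754), and 13 bp from the start of a second non-coding RNA gene named F38A6.6 (WBGene00201501). At a coding exon 4379 bp downstream, the signal was 96.2 among pooled peaks (rank 1646), 78.0 in replicate 1 (rank 591) and 29.6 in replicate 2 (rank 11412). The ranks of the 2 replicates at this exon are far apart, although both had a summit there. A summit 992 bp downstream, in an intron, had 88.0 among pooled peaks, 52.4 in replicate 1 and 44.1 in replicate 2. Of the 10 pooled pha-4 summits, 6 were found in both replicates, where found means a replicate summit within 200 bp.

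The gene ceh-22 (WBGene00000445, chromosome V, 10671918 to 10675769, plus strand) encodes the NK-2 homeodomain factor that activates pharyngeal muscle genes such as the myosin gene myo-2. Its 5 pooled summits all lay inside the gene. The strongest, in a coding exon 777 bp from the 5′ end, had a pooled signal of 104 (rank 1312), 60.2 in replicate 1 (rank 1167) and 51.6 in replicate 2 (rank 1657). It lay 61 bp from the start of a shorter ceh-22 transcript. It also falls inside the non-coding RNA gene F29F11.19 (WBGene00202315), 228 bp from the start of that gene. The next, 23 bp into the 5′ UTR, had 85.5 among pooled peaks (rank 2339), 44.3 in replicate 1 (rank 3050) and 44.1 in replicate 2 (rank 2947). Summits at 2102 and 2302 bp, with pooled signals of 78.5 and 55.1, rest on the same replicate summits, so they are not 2 separate observations. Annotated transcript starts of ceh-22 number 5, and 4 of its 5 pooled summits were within 200 bp of one. Among the 10 genes, ceh-22 had the highest share of pooled summits found in both replicates, 4 of 5.

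The gene tbx-2 (WBGene00006543, chromosome III, 5130923 to 5136296, minus strand) encodes a T-box factor needed for part of the pharyngeal muscle. Its strongest summit lay 77 bp upstream of the 5′ end. The signal was 96.1 among pooled peaks (rank 1649), 54.1 in replicate 1 (rank 1612) and 36.0 in replicate 2 (rank 6104), with replicate summits within 7 bp. Farther upstream, inside the gene Y54H5A.2, 2 summits at 4543 and 4752 bp had pooled signals of 89.2 and 73.2. The first was found in replicate 2 alone (57.9, rank 1109) and the second in replicate 1 alone (47.9, rank 2376). This split follows from the 200 bp limit between summits. The replicate 2 peak at 5140605 to 5141060 and the replicate 1 peak at 5140846 to 5141301 overlap, so both replicates had a peak in this region. Of 9 pooled tbx-2 summits, 2 were found in both replicates. In replicate 2 the summit 4537 bp upstream was the strongest of tbx-2, above the one at its start.

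Sequences of the same length at the strongest summits of these muscle genes are shown next, since 1 lies in an exon and 1 at a gene start. Neither holds a searched motif, so neither has capitals. Their GC content was 53.6% at ceh-22 and 58.9% at tbx-2, against a median of 47.0% over optimal and 36.4% over pooled windows. High GC was not particular to them: over all windows examined at regulator summits it ran from 30.5% (ceh-19) to 58.9%, with 58.3% at peb-1.
ceh-22 exon, chrV:10672620-10672770, plus strand: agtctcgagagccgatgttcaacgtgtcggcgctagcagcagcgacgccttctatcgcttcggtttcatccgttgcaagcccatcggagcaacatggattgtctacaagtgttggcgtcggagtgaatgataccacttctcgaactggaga
tbx-2 start, chrIII:5136298-5136448, minus strand: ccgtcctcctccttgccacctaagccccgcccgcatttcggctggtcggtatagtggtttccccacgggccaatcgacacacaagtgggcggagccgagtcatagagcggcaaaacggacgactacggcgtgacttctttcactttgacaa

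The window of peb-1 held 14 pooled summits, of which 10 lay in the gene, 5 were found in both replicates and 2 in neither. After the optimal one came an intron summit 2220 bp from the 5′ end, with 78.6 among pooled peaks (rank 3093), 37.4 in replicate 1 and 40.7 in replicate 2. Another at 4739 bp had 76.4 among pooled peaks, 42.6 in replicate 1 and 36.1 in replicate 2, and lay 160 bp from a peb-1 transcript start. A summit at 3560 bp, with 66.5 in the pooled list, was found in replicate 2 alone (46.3). Of the 26 non-coding RNA genes that start in the 10 windows, 14 start in that of peb-1.

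The SIX-type homeodomain factor CEH-34 directs the identity of pharyngeal neurons. Its gene (WBGene00000455, chromosome V, 5315496 to 5319577, minus strand) had 4 pooled summits. The strongest, 3351 bp upstream and between genes, had 75.3 among pooled peaks (rank 3552), 41.5 in replicate 1 (rank 3763) and 31.8 in replicate 2 (rank 9332). The closest gene start was that of the related homeobox gene ceh-33, 1738 bp away, so the summit cannot be assigned to ceh-34 by distance. None of the 4 lay within 200 bp of the ceh-34 start.

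At hlh-6, the gland regulator (WBGene00001952, chromosome II, 9613463 to 9614828, minus strand), the strongest summit lay 4730 bp upstream, inside the chaperone gene dnj-20. Its signal was 77.8 in the pooled list (rank 3201) and 48.0 in replicate 1 (rank 2354), with no replicate 2 summit within 200 bp. The other pooled summits of hlh-6, 2367 and 1471 bp upstream, had signals of 40.2 and 34.1 and were found in replicate 2 alone. The first was 70 bp from the start of the gene hal-3 and the second inside hal-3. No pooled hlh-6 summit was found in both replicates, and none lay in the gene.

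The sequences at the ceh-34 and hlh-6 summits are given because both carry 1 GAGAGA match, in capitals on either strand. The window of ceh-2 also holds 1, and its sequence is not shown.
ceh-34 upstream, chrV:5322853-5323003, minus strand: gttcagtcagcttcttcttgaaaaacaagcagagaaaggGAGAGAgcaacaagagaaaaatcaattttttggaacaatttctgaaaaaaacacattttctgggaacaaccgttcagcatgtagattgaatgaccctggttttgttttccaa
hlh-6 upstream, chrII:9619483-9619633, minus strand: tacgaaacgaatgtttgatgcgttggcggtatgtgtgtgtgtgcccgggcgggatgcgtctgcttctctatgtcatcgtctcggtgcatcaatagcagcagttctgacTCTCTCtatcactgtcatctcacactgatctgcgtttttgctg

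The homeobox genes ceh-28 and ceh-19 act in single pharyngeal neuron types, ceh-28 in the M4 motor neuron and ceh-19 in the MC motor neurons. The window of ceh-28 (WBGene00000450, chromosome X, 13074673 to 13076092, plus strand) held 1 pooled summit, with a signal of 37.8 (rank 24093), found in replicate 1 alone (34.5, rank 6989). It lay 3743 bp upstream, inside another gene, cpx-2, and 290 bp from the start of that gene. For ceh-19 (WBGene00000442, chromosome IV, 7953500 to 7955949, minus strand), the strongest of 4 pooled summits lay in a coding exon 181 bp from the 5′ end. The signal was 50.5 among pooled peaks (rank 12247), 24.5 in replicate 1 (rank 18060) and 21.9 in replicate 2 (rank 24210 of 24336), close to the lowest signal of 21.8 in each replicate list. A further ceh-19 summit 36 bp upstream, with a pooled signal of 40.7, was found in neither replicate.

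The gene eya-1 (WBGene00001377, chromosome I, 14220693 to 14231360, minus strand), the eyes absent cofactor of CEH-34, has the longest window of the 10 genes, 15668 bp, and the most pooled summits, 17. These are not all separate places. The summits 2068 and 1846 bp downstream rest on the same replicate 1 summit, and so do those at 10243 and 10008 bp. The optimal summit of eya-1 lay in an intron 2068 bp from the 5′ end, in the peak at 14229064 to 14229519. The signal was 128 among pooled peaks (rank 774), 63.1 in replicate 1 (rank 1015) and 76.8 in replicate 2 (rank 487). Rank 774 is near the end of the optimal list, and in replicate 1 alone the peak would fall outside the 878 strongest. The non-coding RNA gene C49A1.14 (WBGene00198411) starts 260 bp away. Weaker eya-1 summits were also found in both replicates, 1286 bp upstream, 4188 bp downstream and 52 bp from another eya-1 transcript start, and 10243 bp downstream. Their pooled signals were 74.5, 68.1 and 68.0, and the last is 493 bp from the start of the gene best-11. For that last one the replicate summits lay 10069 bp (replicate 1) and 10325 bp (replicate 2) downstream. Each was within 200 bp of the pooled summit, but they were not within 200 bp of each other.

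The gene ceh-2 (WBGene00000429, chromosome I, 6046788 to 6050451, minus strand), an Ems-type homeobox gene expressed in pharyngeal neurons, had 3 pooled summits and none found in both replicates. The strongest lay 62 bp upstream of the start, with 56.4 in the pooled list (rank 8951) and 46.0 in replicate 1 (rank 2703), and no summit in replicate 2 within 200 bp. A summit 748 bp upstream, with 51.5 in the pooled list and found in replicate 1 alone, sits at a tRNA gene (WBGene00022946), 37 bp from its start.

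**Figure D2:**
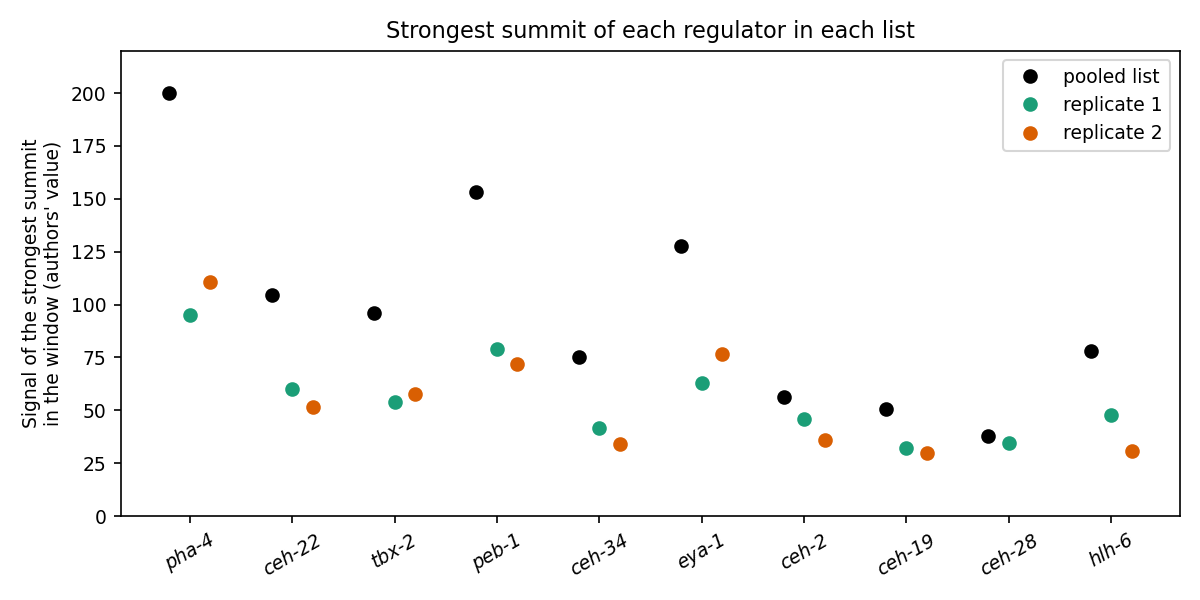
Signal of the strongest summit of each regulator in the pooled list (black), replicate 1 (green) and replicate 2 (orange), with 1 column of points per gene and the authors' signal value on the vertical axis. The gene pha-4 leads in all 3 lists, peb-1 and eya-1 change places between replicates, and ceh-28 has no replicate 2 value. The strongest summit of a gene can lie at a different place in each list, as at tbx-2, and the scaling of the lists is not stated.

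By strongest signal the order in replicate 1 was pha-4, peb-1, eya-1, ceh-22, tbx-2, hlh-6, ceh-2, ceh-34, ceh-28 and ceh-19. In replicate 2 it was pha-4, eya-1, peb-1, tbx-2, ceh-22, ceh-2, ceh-34, hlh-6 and ceh-19, with no summit at ceh-28. The same 5 genes lead in both orders. Within those 5, peb-1 and eya-1, and likewise ceh-22 and tbx-2, exchange places. For tbx-2 the strongest summit is at its start in replicate 1 and 4537 bp upstream, inside Y54H5A.2, in replicate 2, so the second exchange sets different places side by side. At the strongest pooled summit of each gene, ceh-22 ranked above tbx-2 in both replicates (ranks 1167 and 1612 in replicate 1, 1657 and 6104 in replicate 2). Over the 10 genes the median of the strongest pooled signal was 87.0, against 49.7 over all protein-coding genes (0 where a gene had no summit).

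**Figure D3:**
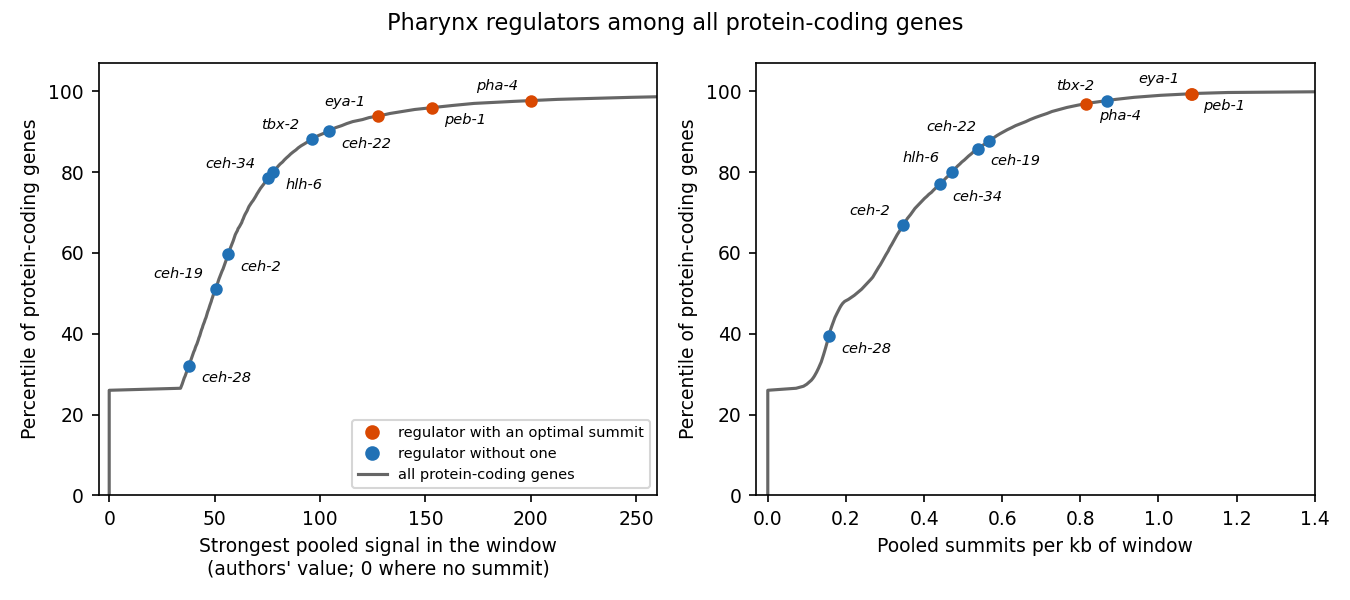
Percentile among all protein-coding genes of each regulator's strongest pooled signal (left) and of its pooled summits per kb of window (right), with the line for all protein-coding genes. Orange points are the 3 genes with an optimal summit and blue points the other 7; ceh-28 lies below the middle of the distribution on both axes.

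By strongest signal pha-4 exceeded 97.7% of protein-coding genes, peb-1 96.0% and eya-1 93.9%. These 3 genes have windows of at least 12 kb, and the percentiles were not matched for window length. At least 10 pooled summits occurred at 3 of 10 regulators, 2.3% of protein-coding genes and 20.2% of those with windows of at least 12 kb. By summits per kb, eya-1 and peb-1 each exceeded 99.4%, tbx-2 97.7% and pha-4 97.0%. Every pooled summit was counted, also where neighbours rest on the same replicate summit. At the low end, ceh-28 exceeded 32.1% by signal and 39.3% by summits per kb. The strongest summit of ceh-19 exceeded 51.2%, near the middle of all genes.

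Agreement between replicates followed the rank in the pooled list. Of 70 pooled regulator summits, 27 (38.6%) were found in both replicates, 26 in replicate 1 alone, 11 in replicate 2 alone and 6 in neither, against 32.6% found in both for all pooled summits. Read from the replicates, 23 of 62 replicate 1 summits (37.1%) had a replicate 2 summit within 200 bp, against 40.7% of all replicate 1 summits. The reverse held for 24 of 51 replicate 2 summits (47.1%), against 39.1%. Every regulator summit of ranks 1 to 2000 was found in both (4 of 4 in ranks 1 to 878 and 4 of 4 in ranks 879 to 2000), where all pooled summits reached 99.1% and 95.3%. Ranks 1 to 878 are the optimal list, kept by a procedure that asks for agreement, so agreement there was largely set in advance. In ranks 2001 to 5000 it was 9 of 13, against 85.6%, and in ranks 5001 to 10000 it was 5 of 13, against 58.5%. Below that, 5 of 17 and 0 of 19 were found in both, against 19.8% and 3.6%. Of the 70 regulator summits, 36 (51.4%) lie beyond rank 10000. Of the 10 strongest pooled summits, 1 per gene, 7 were found in both replicates, against 53.1% of protein-coding genes with a pooled summit; the other 3 are those of ceh-2, ceh-28 and hlh-6.

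**Figure D4:**
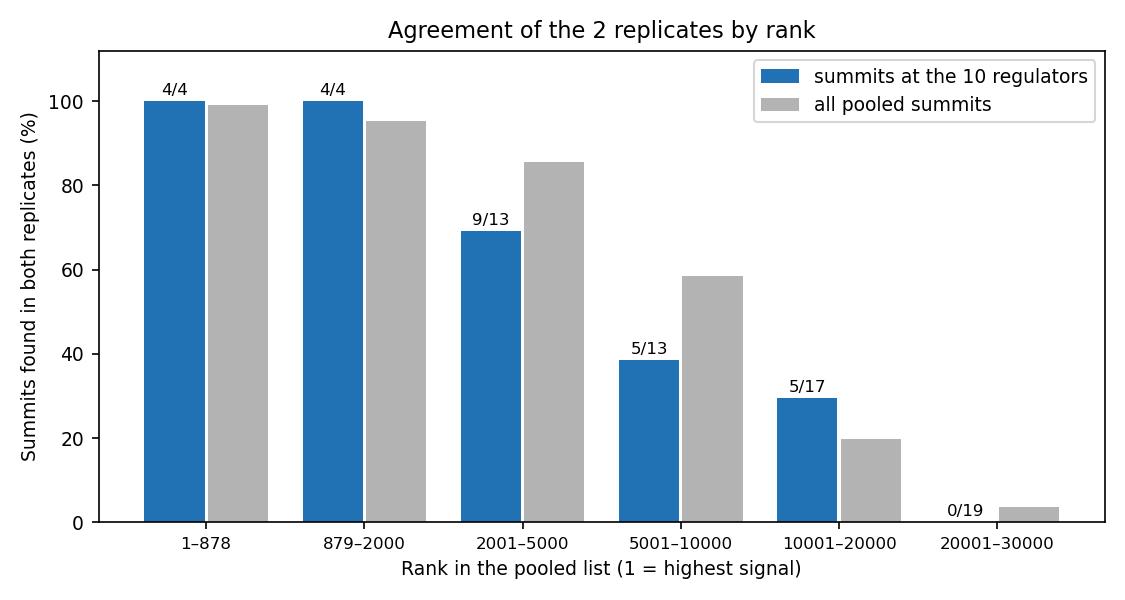
Percent of pooled summits found in both replicates within 200 bp, on the vertical axis, by rank of signal in the pooled list on the horizontal axis, with bars for the regulator windows and for all pooled summits. Agreement falls with rank in both, from 4 of 4 regulator summits in ranks 1 to 878 to 0 of 19 in ranks 20001 to 30000.

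By place, 33 of the 70 summits (47.1%) were in introns of the regulators, 5 in coding exons, 2 in 5′ UTRs, 1 in a 3′ UTR, 13 upstream between genes and 16 upstream inside another gene. No background share is given for this split, so it shows no preference for a place. Within 200 bp of an annotated transcript start of any gene lay 29 (41.4%), against 22.8% of the pooled summits in protein-coding windows. Of these 29, 14 were within 200 bp of a start of the regulator itself, a count also given without a background share. Non-coding RNA genes had the closest start for 39 of 70 (55.7%), against 19.3% of the pooled summits in protein-coding windows (5348 of 27742). The peb-1 window, where 14 such genes start, gave 14 of these, and without it the share was 25 of 56 (44.6%), a split made after the values were seen. All 4 optimal summits were at least 2 kb from the closest protein-coding gene start, against 34.6% of nuclear optimal summits (296 of 856), a limit chosen after the values were seen.

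The first of the 7 motifs searched on both strands in 11 windows (4 optimal summits and the strongest summit of each other gene) was the homeodomain core TAATTA, which is its own reverse complement. The others were TTAATT (it can overlap the first), the forkhead-type TGTTTAC and its variant TGTTTGC, the NK-2-type letters CACTTA, the E-box CAACTG and the repeat GAGAGA. The core TAATTA occurred in 0 of 11, against 4.56% of optimal and 7.21% of pooled windows, and TTAATT in 0 of 11, against 13.0% and 23.0%. TGTTTGC occurred in 1 (eya-1), against 7.63% and 3.64%, and CAACTG in 1 (ceh-19), against 6.83% and 6.24%. TGTTTAC occurred in 0 of 11, against 2.73% and 1.76%, and CACTTA in 0 of 11, against 3.76% and 3.71%. GAGAGA occurred in 4 (pha-4 upstream, ceh-34, ceh-2 and hlh-6), against 25.1% of optimal and 11.0% of pooled windows. A match or its lack describes these letters in this window and says nothing of binding.

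Among 16 other genes of pharynx specification and differentiation, 1 had an optimal summit and 12 had a pooled one, against 7.0% and 73.8% of all protein-coding genes, so this list lay near the background in both. The optimal summit was at ceh-27, an NK-2 homeobox gene, 17 bp downstream of its 5′ end, with 185 among pooled peaks (rank 320), 61.7 in replicate 1 (rank 1089) and 123 in replicate 2 (rank 169). It lay 8 bp from the start of the non-coding RNA gene F46F3.22. The window of pha-2 itself, 8626 bp, held 0 pooled summits, as did those of med-1, med-2 and glp-1. The median strongest pooled signal over the 12 genes with one was 77.9.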

How the data were processed

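The authors' deposited narrowPeak lists on ce11 were used: 1 relaxed list per replicate, 1 of the pooled replicates and 1 optimal list. The pooled list is labelled as peaks and background for IDR. Each peak has a signal value and a −log10 q-value, both written by the authors' peak caller. A single control library served for calling both replicates, per the labels, and it was not analysed here. The aligner and the peak caller were not given in the sources used here. The lists give no read counts, so depth is unknown, and intervals cover counting error of genes only. The lists on ce10 were not used.

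Gene positions are from Ensembl release 115 on WBcel235, the same assembly, and sequence is from the RefSeq genome. Rank 1 is the highest signal of a list, and signals were never averaged across lists, whose scaling is not stated. A replicate summit within 200 bp counts as the same place, and the one of highest signal was taken. No test was made. Named are all 10 regulators, each optimal summit, the strongest pooled summit and up to 3 further ones per gene, the genes closest to optimal summits, and, of the 16 other pharynx genes, those with an optimal summit and pha-2. Genes at 0 pooled summits or beside a named summit were added after their values were seen. The regulators, the other pharynx genes and the motifs were chosen with earlier results of these data known. Window counts were tested on simulated data with planted summits. Python 3.11.15, pandas 2.3.3, numpy 2.4.6, scipy 1.17.1 and matplotlib 3.10.9 were used. Alternatives were other reaches upstream, interval overlap, stricter lists, single replicates, other match distances and other sets of gene starts, and windows of at least 12 kb, which was chosen after seeing the data.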

Additional observations from a re-analysis of the deposited data

How the results depend on the processing

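The count of regulators with an optimal summit was 3, and it was 1 (pha-4) with 5000 bp upstream only and 1 (pha-4) in the upper 50% of the optimal list. The count of optimal summits, 4, was 1 with 5000 bp upstream only and 2 in the upper 50% of the optimal list. Both changes follow from how these settings are built, since peb-1 and eya-1 have their optimal summits inside the gene and at lower signal. Taking the 878 strongest peaks of 1 replicate in place of the optimal list gave 2 to 3 regulators and 4 to 5 summits, and eya-1 was lost when replicate 2 was left out. With a reach of 1000, 2000 or 10000 bp, or interval overlap, the 3 genes were pha-4, peb-1 and eya-1. Of 32 recomputed counts of regulators or summits, 27 stayed within a factor of 1.5 of the count reported. The share of protein-coding genes with an optimal summit, 7.0%, was 3.93%, 4.8% and 10.3% at 1000, 2000 and 10000 bp, 5.75% upstream only, 7.48% by interval overlap, 3.71% in the upper 50% of the list, 6.59% without replicate 1, 7.0% without replicate 2 and 13.7% over windows of at least 12 kb, so 6 of 9 values stayed within that factor. The count of strongest summits found in both replicates, 7, was 6 at 100 bp and 8 at 500 bp. Closest gene start was a regulator for 0 of the 4 optimal summits over all gene types and for 3 over protein-coding starts. Depth is unknown, so an absent summit, as at ceh-28 in replicate 2, is not shown to be absent binding.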
